A study of Homo sapiens with 20 samples.

Results

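The genes described here are 8 genes of the B cell program, chosen by name: the transcription factors EBF1, PAX5, SPIB, BCL6 and BACH2, and the surface genes CD79A, CD79B and MS4A1. All 8 were found by symbol among the 78932 gene identifiers of the count table, and 6 passed a filter on low counts and were tested together with 20957 genes in all. MS4A1 and CD79A did not pass the filter, and PAX5 passed it only through the libraries given panobinostat for 20 h. BCL6 rose with all 3 inhibitors at 2 h, and at 20 h it was 13-fold higher than in DMSO with romidepsin and 11.7-fold higher with panobinostat. EBF1 rose and CD79B fell with both of these at 20 h, while BACH2 rose with romidepsin and fell with panobinostat. MS4A1 had no count in any of the 20 libraries.

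EBF1 and PAX5 open and maintain the B cell program, SPIB is an Ets factor of mature B cells, and BCL6 and BACH2 are repressors that hold activated B cells in the germinal centre state. When a B cell becomes a plasma cell, PRDM1 and XBP1 take over and most of these genes are silenced, together with the B cell receptor chains CD79A and CD79B and with MS4A1, which encodes CD20. Multiple myeloma is a cancer of plasma cells, and histone deacetylase inhibitors block enzymes that remove acetyl groups from histones and other proteins.

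The libraries came from OPM2, 1 human multiple myeloma line, and fall into 10 groups of 2 independent biological replicates: romidepsin at 10 nM, panobinostat at 10 nM and ricolinostat at 100 nM, each for 2, 5 and 20 h, and the DMSO vehicle. Romidepsin is a cyclic depsipeptide that acts mainly on class I deacetylases, panobinostat is a hydroxamic acid that acts on most of the zinc-dependent ones, and ricolinostat is a hydroxamic acid directed mainly at HDAC6. For ricolinostat the titles and the protocol give 100 nM while the treatment field gives 10 nM, and because its dose differs from that of the others its values are set side by side with theirs and were not tested against them. The labels list the batch as unknown and give no harvest time for the DMSO cells, so time in culture and the inhibitor cannot be told apart in any comparison with DMSO.

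Total counts ran from 17264640 to 29088868 per library. Levels are CPM, counts scaled to the library total after TMM normalisation, and changes are log2 fold changes ± SE from an edgeR quasi-likelihood fit with 2 libraries per group. A gene is said to have risen or fallen where its p-value, adjusted by Benjamini-Hochberg over all tested genes, was under 0.05. The median change of all tested genes was 0.22 with romidepsin and 0.25 with panobinostat at 20 h, and scaling by library size alone put these medians at 0.46 and 0.56, so small rises at 20 h are close to the shift of the whole table. In bulk RNA, fewer cells with a transcript and less RNA per cell cannot be told apart.

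The DMSO libraries carried the transcripts of plasma cells. The plasma cell markers averaged 1751 CPM for IRF4, 1118 for SDC1, 919 for XBP1 and 515 for PRDM1 in DMSO. Of the mature B cell markers, MS4A1, CD22, FCER2, CD72 and TCL1A had no count in either DMSO library, and PAX5 and CD79A had 4 and 5 counts over both. Most of the mature B cell markers were thus at or near 0, and BACH2 and CD79B were the members with the highest levels per length.

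Set in order per kilobase of exon, the DMSO levels were 2.82 ± 0.213 CPM per kb for BACH2, 2.03 ± 0.369 for CD79B, 0.365 ± 0.0282 for BCL6, 0.106 ± 0.0101 for SPIB, 0.0704 ± 0.0996 for CD79A, 0.0532 ± 0.0411 for EBF1 and 0.00799 ± 0.0113 for PAX5 (SD, n = 2). CD79A overlapped its neighbours SPIB and EBF1 in this order. With romidepsin at 20 h BCL6 stood first at 4.76 ± 0.119 CPM per kb, ahead of BACH2 at 3.62 ± 0.333. EBF1 at 0.49 ± 0.113 and CD79B at 0.347 ± 0.112 followed, and the libraries of this pair overlapped. With panobinostat at 20 h BCL6 had 4.27 ± 0.0798 CPM per kb and BACH2 1.68 ± 0.163, while EBF1 at 0.322 ± 0.0636, CD79B at 0.292 ± 0.0657, PAX5 at 0.22 ± 0.0443 and SPIB at 0.18 ± 0.0951 lay within each other's spread from one neighbour to the next. With ricolinostat at 20 h the order of the first 3 was that of DMSO: BACH2 at 3.9 ± 0.309, CD79B at 1.75 ± 0.0636 and BCL6 at 0.355 ± 0.0694 CPM per kb.

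**Figure D1:**
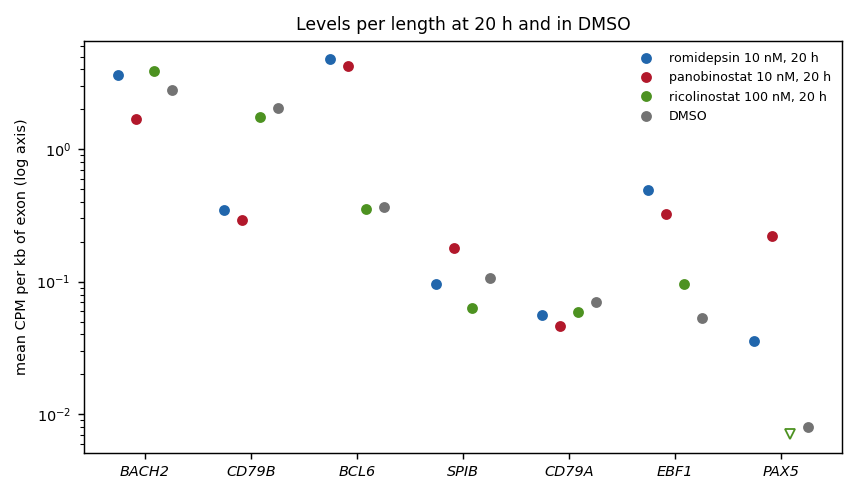
Mean level of 7 members in CPM per kb of exon (log axis) in romidepsin, panobinostat and ricolinostat libraries at 20 h and in DMSO (2 libraries per point). The open triangle marks PAX5 with ricolinostat, which had no count and is drawn at the floor of 3 counts over both libraries; BCL6 is at 4.76 and 4.27 CPM per kb with romidepsin and panobinostat, against 0.365 in DMSO, and MS4A1 is left out because it had no count in any library.

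The first comparison asked which members differed from DMSO, and when. PAX5 is left out of the counts of members that rose or fell, because it passed the filter only through the group in which it was high. MS4A1 and CD79A were not tested, so these counts are out of the other 5 tested members. At 20 h, 3 of these 5 rose with romidepsin (38.6% of all tested genes rose) and 1 fell (29.9% of all fell). With panobinostat at 20 h 2 rose (40.8% of all) and 2 fell (32.3% of all), and with ricolinostat at 20 h 1 rose (14.7% of all) and none fell (16.4% of all). At 5 h romidepsin had 1 riser (13% of all) and 1 that fell (16.5% of all), panobinostat had 2 risers (30.7% of all) and none that fell (25.9% of all), and ricolinostat 1 riser (18.8% of all) and none that fell (15.3% of all). At 2 h each inhibitor had 1 riser, BCL6, beside 3.55% of all genes with romidepsin, 20.8% with panobinostat and 16.9% with ricolinostat. Ricolinostat at 2 h also had 1 member that fell, BACH2, beside 14.5% of all genes, while with romidepsin 4.62% of all genes and no member fell and with panobinostat 18.1% and no member fell. The 9 comparisons share the same 2 DMSO libraries, so they are not independent of each other.

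**Figure D2:**
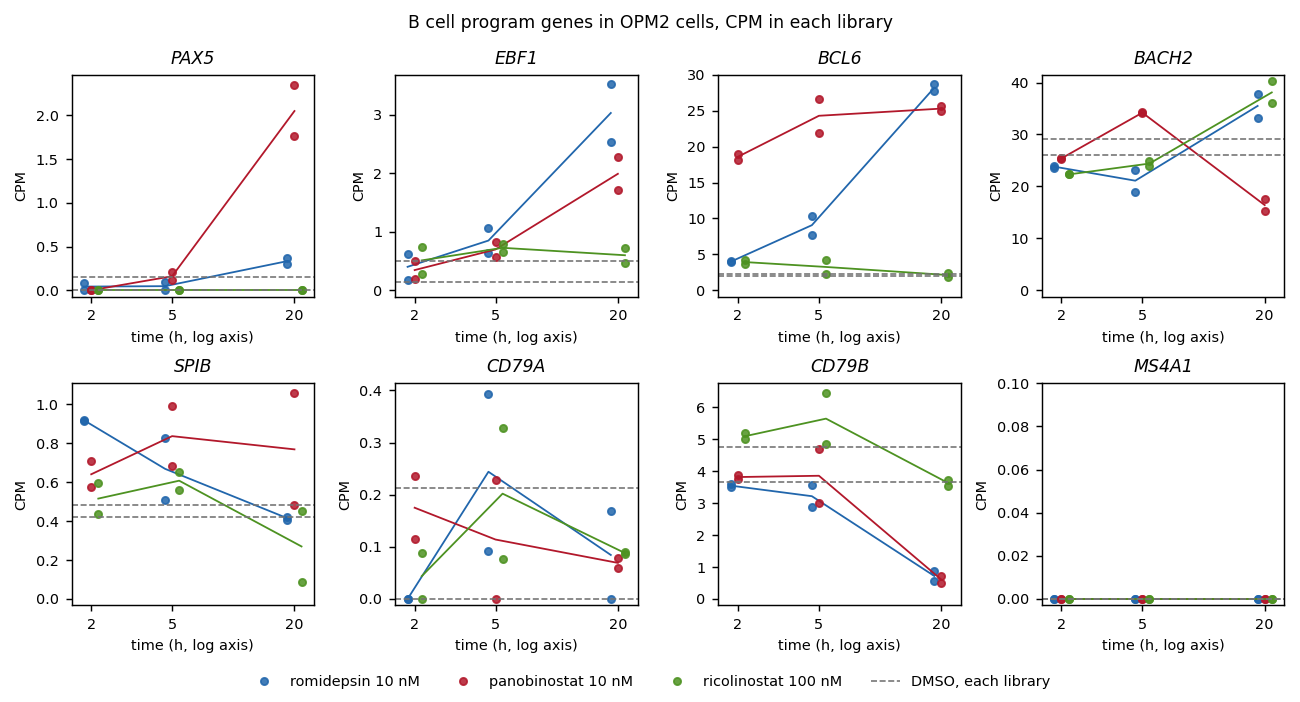
Level of each of the 8 members in CPM against time (h, log axis) with romidepsin (blue), panobinostat (red) and ricolinostat (green); each point is a library, lines join group means and dashed lines are the 2 DMSO libraries. BCL6 reached 18.2 to 26.7 CPM with panobinostat at every time but passed 20 CPM only at 20 h with romidepsin, while CD79B stayed near DMSO until it lay under 1 CPM with both at 20 h.

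EBF1, an early B cell factor able to bind closed chromatin (ENSG00000164330, GRCh38 chromosome 5, 158695916 to 159099761, minus strand), had 2.53 and 3.52 CPM with romidepsin at 20 h, against 0.508 and 0.149 CPM in DMSO. With panobinostat at 20 h it had 2.27 and 1.71 CPM, and with ricolinostat 0.471 and 0.725 CPM. The libraries given romidepsin or panobinostat for 20 h were all above the DMSO libraries, and one ricolinostat library lay between them. The changes were 3.22 ± 0.50 with romidepsin (adjusted p = 1.5e-08) and 2.61 ± 0.51 with panobinostat (adjusted p = 3.7e-06), each with 2 of 2 libraries higher. With ricolinostat the change was 0.88 ± 0.60 (adjusted p = 0.28, 95% interval -0.30 to 2.07). At 5 h EBF1 did not pass with romidepsin (1.38 ± 0.57, adjusted p = 0.056), panobinostat (1.13 ± 0.59, 0.092) or ricolinostat (1.16 ± 0.58, 0.12), but all 3 passed without DMSO replicate 1 (2.44, 2.18 and 2.19), and romidepsin also with scaling by library size alone (adjusted p = 0.039) and without its own replicate 1 (1.71, 0.037). The 2 DMSO libraries held 12 and 4 counts, and leaving out replicate 1 or 2 gave 4.26 or 2.52 at 20 h with romidepsin and 3.61 or 1.87 with panobinostat.

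PAX5, the factor that commits cells to the B lineage (ENSG00000196092, GRCh38 chromosome 9, 36833275 to 37034185, minus strand), had 7 and 10 counts with romidepsin at 20 h, 45 and 78 counts with panobinostat and 0 in all 6 ricolinostat libraries, against 0 and 4 counts in DMSO. In CPM these were 0.295 and 0.371 with romidepsin, 1.76 and 2.35 with panobinostat, and 0 and 0.149 in DMSO. Both groups lay above both DMSO libraries, the panobinostat pair well above the romidepsin pair. The fitted change with panobinostat at 20 h was 4.63 ± 0.91, given as a description because PAX5 entered the test only through that group. With no filter on low counts, where its entry does not depend on that group, the value was 4.58 (adjusted p = 1.6e-06 over 49861 genes). Its size rests on the 4 counts of DMSO replicate 2: it was 3.67 without DMSO replicate 1 and 8.59 without replicate 2, a fitted value against no PAX5 count. Romidepsin gave 2.02 ± 1.03, which did not pass (adjusted p = 0.073, 95% interval -0.01 to 4.06). Romidepsin passed when scaled by library size alone (2.25, adjusted p = 0.045) and without DMSO replicate 2 (adjusted p = 0.018), where DMSO has no PAX5 count left. At 2 h the counts over both libraries were 2 with romidepsin and 0 with panobinostat, and at 5 h 2 and 7.

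The bases before the RefSeq start of PAX5 are shown because this member took most of its counts, 123 of 155, from 1 group. They are the 250 bases before the start on the minus strand of GRCh38.p14, chr9:37034269-37034518, written 5′ to 3′ with CG pairs in capitals.
PAX5: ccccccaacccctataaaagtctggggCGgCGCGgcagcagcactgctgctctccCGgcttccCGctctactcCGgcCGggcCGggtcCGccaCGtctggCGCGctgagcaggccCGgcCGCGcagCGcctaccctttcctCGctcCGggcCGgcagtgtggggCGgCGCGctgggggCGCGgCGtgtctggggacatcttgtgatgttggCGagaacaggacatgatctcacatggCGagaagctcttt
This stretch holds 27 CG pairs. The whole window of 250 bases before and 50 after the start held 30, against a median of 14 over 35116 RefSeq windows of that length (quartiles 4 and 28). A TATAAA match starts at base -238 of this window, and TATAAA is found on either strand in 11.5% of all windows. The SPIB window held a TATAAA match too, at base -29. Windows were found for 6 of the 8 members: BACH2 had 45 CG pairs, BCL6 12 and 7 in its pair of windows, SPIB 11, EBF1 8 and CD79A 4. PAX5, with 4 counts in DMSO, and BACH2, with 1397, were thus both above the upper quartile of all windows in CG pairs.

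SPIB (ENSG00000269404, GRCh38 chromosome 19, 50418938 to 50431313, plus strand) did not pass in any of the comparisons with DMSO. At 20 h it had 0.422 and 0.408 CPM with romidepsin, 1.06 and 0.481 with panobinostat and 0.0856 and 0.453 with ricolinostat, against 0.423 and 0.485 in DMSO. The groups overlapped or touched at these levels, which stand for 2 to 27 counts per library. The largest fitted difference from DMSO was 1.00 ± 0.57 with romidepsin at 2 h (adjusted p = 0.34, 95% interval -0.13 to 2.14), an interval that still holds a fold change of several times at these counts.

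BCL6, a zinc finger repressor that recruits corepressors with histone deacetylases (ENSG00000113916, GRCh38 chromosome 3, 187721377 to 187745727, minus strand), was higher than DMSO in every romidepsin and panobinostat group. The BCL6 protein is known to bind its own promoter and first exon and to repress them. Its binding motif in the letters TTCNNNGAA was therefore searched in the window around its first RefSeq start, and the 3 stretches with matches are shown with the matches in capitals, from the minus strand of GRCh38.p14, 5′ to 3′.
BCL6 chr3:187745483-187745501, bases -33 to -15: tcaaaTTCCGAGAAttgag
BCL6 chr3:187745448-187745475, bases -7 to 21: gaTTCTTAGAActggggTTCTTAGAAgt
BCL6 chr3:187745419-187745437, bases 32 to 50: gaagtTTCTAGGAAaggcc
The window held 4 matches, and 4 or more were found in 7 of 35116 windows (0.0199%), while 7.66% of windows held at least 1. The motif reads the same on both strands. The last of the 4 is also a match to TTCCTAGAA on the other strand, a longer form found in 0.373% of windows. The second BCL6 window, at another start, held a TGANTCA match at base -77, the kind of site that BACH2 with a small MAF protein binds (7.71% of windows). No window of a member held the EBF1 motif of 10 bases with 2 free positions in its middle (1.21% of windows) or GAGGAAGT (SPIB type, 2.59%). A match describes letters and is not a shown site of binding.

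With romidepsin BCL6 had 4.03 and 3.95 CPM at 2 h, 10.4 and 7.74 at 5 h and 28.7 and 27.7 at 20 h, against 2.29 and 2.05 CPM in DMSO. With panobinostat it had 19 and 18.2 CPM at 2 h, 21.9 and 26.7 at 5 h and 25 and 25.7 at 20 h. Both courses ended at a similar level, but panobinostat had most of it within 2 h and romidepsin climbed over the whole course. The changes from DMSO were 0.88 ± 0.21, 2.07 ± 0.19 and 3.70 ± 0.16 with romidepsin (adjusted p = 0.0021, 9.2e-17 and 2.4e-37) and 3.10 ± 0.17, 3.49 ± 0.17 and 3.55 ± 0.16 with panobinostat (adjusted p = 6.9e-30, 1.6e-34 and 4.4e-36). With ricolinostat BCL6 had 4.15 and 3.69 CPM at 2 h, 2.27 and 4.21 at 5 h and 2.4 and 1.81 at 20 h. Only the 2 h pair stood clear of DMSO, and the 20 h pair overlapped it. The ricolinostat changes were 0.85 ± 0.21 (adjusted p = 6.3e-04), 0.55 ± 0.22 (adjusted p = 0.044) and -0.03 ± 0.24 (adjusted p = 0.97, 95% interval -0.51 to 0.45). The call at 5 h was lost without ricolinostat 5 h replicate 2 (0.04), without either DMSO library (0.59 and 0.43) and under 6 other settings. The romidepsin call at 2 h was lost without DMSO replicate 2, where the change was 0.79, the lowest of its alternatives.

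BACH2, a repressor of PRDM1 that acts with small MAF proteins (ENSG00000112182, GRCh38 chromosome 6, 89926529 to 90296908, minus strand), moved in both directions. With romidepsin it had 24 and 23.5 CPM at 2 h, 23.2 and 19 at 5 h and 37.8 and 33.2 at 20 h, against 26.1 and 29.1 CPM in DMSO. With panobinostat it had 25.3 and 25.4 CPM at 2 h, 34.1 and 34.3 at 5 h and 15.3 and 17.6 at 20 h. With ricolinostat it had 22.3 and 22.3 CPM, 24.8 and 23.9, and 40.3 and 36. At 20 h the romidepsin and ricolinostat pairs were therefore above both DMSO libraries and the panobinostat pair below both. The changes at 20 h were 0.36 ± 0.09 with romidepsin (adjusted p = 2.0e-04), -0.74 ± 0.09 with panobinostat (adjusted p = 9.7e-12) and 0.47 ± 0.09 with ricolinostat (adjusted p = 7.3e-06). At 5 h they were -0.39 ± 0.09 (adjusted p = 5.1e-04), 0.31 ± 0.09 (0.002) and -0.18 ± 0.09 (0.13). At 2 h they were -0.22 ± 0.09 (0.15), -0.12 ± 0.09 (0.31) and -0.31 ± 0.09 (0.0051). Several of these calls rest on 1 library: romidepsin at 20 h was lost without its replicate 1 (0.18, adjusted p = 0.15), romidepsin at 5 h without its replicate 2 (-0.27, 0.068), panobinostat at 5 h without DMSO replicate 1 (0.20, 0.12) and ricolinostat at 2 h without DMSO replicate 2 (-0.25, 0.11). The fall with panobinostat at 20 h passed under every alternative run, from -0.91 to -0.44. Beside the BACH2 rise of 0.36 with romidepsin at 20 h, the median change of all tested genes was 0.22.

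**Figure D3:**
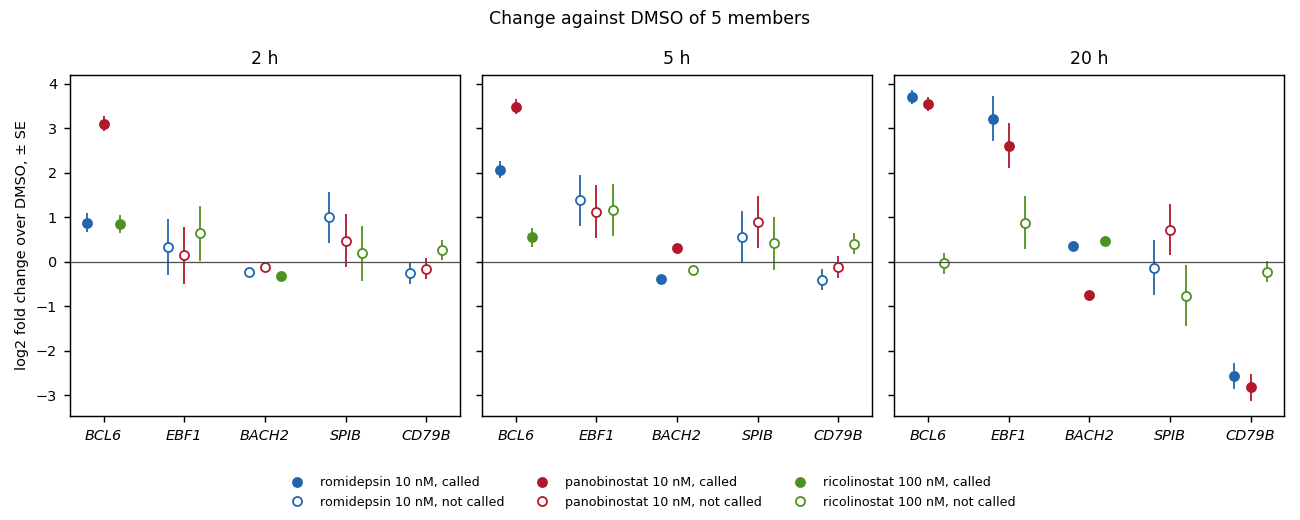
Log2 fold change over DMSO with its SE (vertical axis) of 5 tested members at 2, 5 and 20 h for romidepsin (blue), panobinostat (red) and ricolinostat (green), filled where the adjusted p was under 0.05. BCL6 is at 0.88 with romidepsin and 3.10 with panobinostat at 2 h and at 3.70 and 3.55 at 20 h, and CD79B is at -2.56 and -2.82 at 20 h; PAX5 is left out because several of its groups had no count.

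CD79B, a signalling chain of the B cell receptor (ENSG00000007312, GRCh38 chromosome 17, 63928740 to 63932354, minus strand), had 0.886 and 0.556 CPM with romidepsin at 20 h, 0.704 and 0.511 with panobinostat and 3.72 and 3.54 with ricolinostat, against 3.68 and 4.77 CPM in DMSO. The romidepsin and panobinostat pairs lay far below both DMSO libraries, and the ricolinostat pair lay on either side of the lower one. The changes at 20 h were -2.56 ± 0.30 with romidepsin (adjusted p = 6.4e-13), -2.82 ± 0.30 with panobinostat (adjusted p = 9.8e-15) and -0.22 ± 0.24 with ricolinostat (adjusted p = 0.54, 95% interval -0.69 to 0.25). CD79B did not pass at 2 or 5 h with any of them, with group means of 3.22 to 5.65 CPM. Both falls passed under every alternative run, from -3.00 to -2.29 with romidepsin and from -3.11 to -2.51 with panobinostat. A tested neighbour, SCN4A, a sodium channel gene 6.2 kb away at higher coordinates, went the other way, with 9.96 CPM with romidepsin and 27.8 CPM with panobinostat at 20 h, against 1.16 CPM in DMSO (3.09 ± 0.22 and 4.57 ± 0.21, adjusted p = 8.9e-24 and 6.6e-38).

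CD79A, the partner chain (ENSG00000105369, GRCh38 chromosome 19, 41877120 to 41881372, plus strand), had 52 counts in all libraries together and none in 6 of them. At 20 h it had 4 and 0 counts with romidepsin, 2 and 2 with panobinostat and 2 and 2 with ricolinostat, against 5 and 0 in DMSO. The most in any group was 10 and 2 counts with romidepsin at 5 h, a ratio to DMSO of 2.58 (95% counting interval 0.846 to 9.35). The 95% counting intervals of the other ratios to DMSO also held 1, wherever the inhibitor group had a count. With romidepsin at 2 h CD79A had 0 counts, against 8 with panobinostat at 2 h and 5 in DMSO, all 5 in 1 library. Set against a floor of 3 counts over both libraries, these counts were 2.64-fold and 1.55-fold higher. Such values leave out the counting error of the group that has counts, so they are not lower limits. With romidepsin CD79A at 5 h was 3.99-fold above the same floor at 2 h, 10 of the 12 counts being in 1 library. CD79A did not pass the filter, so none of these differences was tested. These intervals cover counting error only, and low counts in the table are mostly even (61.4% of values from 1 to 6), so they are too narrow if the 2 mates of a read pair were counted separately. MS4A1 (ENSG00000156738, GRCh38 chromosome 11, 60455752 to 60470760, plus strand) had 0 counts throughout, which allows a level of up to 0.051 to 0.0718 CPM per group. CD79B was thus the only one of the 3 surface members with enough counts to test.

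The second comparison asked whether the 2 inhibitors given at the same dose differed in these genes. At 2 h no member was higher with romidepsin than with panobinostat (17.3% of all tested genes were) and 1 was lower (19.8% of all). At 5 h none was higher (24.8% of all) and 2 were lower (25.9% of all), and at 20 h 1 was higher (23.4% of all) and none lower (18.3% of all), PAX5 again left out. BCL6 was lower with romidepsin by 2.22 ± 0.16 on the log2 scale at 2 h (log2 fold change -2.22, adjusted p = 4.2e-23) and changed by -1.42 ± 0.14 at 5 h (adjusted p = 3.4e-16). At 20 h its difference was 0.16 ± 0.12 (adjusted p = 0.32), with a 95% interval of -0.08 to 0.39. BACH2 differed by -0.09 ± 0.09 at 2 h (adjusted p = 0.48), -0.69 ± 0.09 at 5 h (adjusted p = 2.0e-10) and 1.10 ± 0.09 at 20 h (adjusted p = 1.0e-19), so that the inhibitor with more BACH2 was panobinostat at 5 h and romidepsin at 20 h. The 20 h value stayed between 1.00 and 1.23 under all alternatives.

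PAX5 differed between romidepsin and panobinostat at 20 h by -2.60 ± 0.75, again as a description, and by -2.60 with no filter on low counts (adjusted p = 0.0033). Without panobinostat 20 h replicate 2 the filtered value was -2.39 (adjusted p = 0.10, the highest of its alternatives). EBF1 did not pass at 20 h (0.61 ± 0.40, adjusted p = 0.23, 95% interval -0.17 to 1.40), although it did when only these 2 groups were fitted (adjusted p = 0.042) and when counts were halved (adjusted p = 0.034). CD79B did not pass at any time, with 0.25 ± 0.40 at 20 h (adjusted p = 0.67, 95% interval -0.53 to 1.04). SPIB did not pass either, with -0.85 ± 0.58 at 20 h (adjusted p = 0.25, 95% interval -2.01 to 0.30). The wide intervals of EBF1, CD79B and SPIB come with 155 counts or fewer per group at 20 h.

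**Figure D4:**
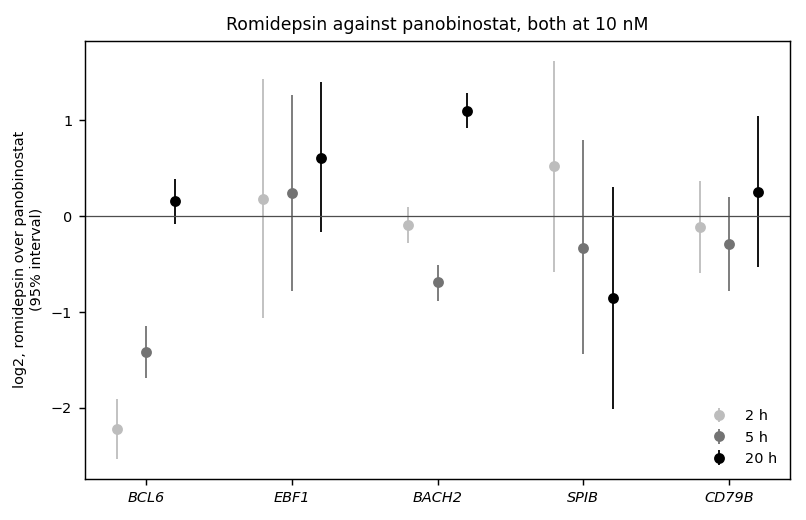
Log2 fold change of romidepsin over panobinostat at 10 nM, with its 95% interval, for 5 members at 2 h (light grey), 5 h (grey) and 20 h (black). BCL6 is at -2.22, -1.42 and 0.16 and BACH2 at -0.09, -0.69 and 1.10, so that the intervals of these 2 members at 20 h lie apart from those at 5 h.

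The third comparison set successive harvests of 1 inhibitor against each other. With PAX5 left out, 3 members rose from 5 to 20 h with romidepsin (33.4% of all tested genes did) and 1 fell (29.4% of all), while 1 rose with panobinostat (27.5% of all) and 2 fell (28.9% of all), and 1 rose with ricolinostat (17.2% of all) and 2 fell (20.7% of all). From 2 to 5 h 1 rose with romidepsin (8.4% of all) and none fell (11.9% of all), 2 rose with panobinostat (19.8% of all) and none fell (22.2% of all), and none rose or fell with ricolinostat (6.69% and 8.58% of all). CD79B at 20 h against 5 h changed by -2.16 ± 0.31 with romidepsin (adjusted p = 1.5e-09) and by -2.70 ± 0.31 with panobinostat (adjusted p = 3.1e-13). BCL6 at 20 h against 5 h rose by 1.63 ± 0.13 with romidepsin (adjusted p = 6.0e-20), while with panobinostat its difference was 0.05 ± 0.12 (adjusted p = 0.73, 95% interval -0.19 to 0.29).

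Among the genes that PAX5 or EBF1 are reported to activate, CD72 had no count in DMSO. It passed the filter only through romidepsin and panobinostat at 20 h, with means of 0.233 CPM or less in every other group. Its values are therefore a description, although the list counts below include it. CD72, a surface inhibitor of B cell receptor signals, had 1.69 and 1.48 CPM with romidepsin and 1.92 and 1.41 CPM with panobinostat at 20 h and none in DMSO. It was 26.6-fold higher with romidepsin and 27.4-fold higher with panobinostat, taken against a floor of 3 counts over both DMSO libraries. With ricolinostat at 20 h CD72 had 3 and 3 counts. The CD72 levels of the 2 groups overlapped, beside 7 and 10 counts of PAX5 with romidepsin and 45 and 78 with panobinostat.

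Of the 15 tested genes of that list (20 in all), 7 rose and 5 fell with romidepsin at 20 h, 6 rose and 6 fell with panobinostat and 3 rose and 3 fell with ricolinostat, with medians of 1.08, 0.02 and 0.41 (0.00 for ricolinostat with genes at 0 placed at their bound). Beside these and the later lists stand the shares of all tested genes given above and their medians of 0.22, 0.25 and 0.03. The 5 falls with romidepsin were 2 with DESeq2, with scaling by library size alone, without DMSO replicate 1 and without romidepsin 20 h replicate 2. On this list LEF1, a lymphoid enhancer factor, fell with all 3 (-2.91 ± 0.07, -4.28 ± 0.08 and -0.63 ± 0.06), and ID3, an inhibitor of E proteins, rose with all 3 (4.27 ± 0.06, 3.27 ± 0.06 and 0.70 ± 0.07). CIITA, the activator of MHC class II genes, rose with romidepsin (40 and 37.9 CPM, against 12.3 and 11.6 in DMSO) and ricolinostat (20.5 and 19.2 CPM) at 20 h but not with panobinostat (13.9 and 10.5 CPM). Its changes were 1.71 ± 0.11 (adjusted p = 4.1e-28), 0.74 ± 0.11 (4.8e-08) and 0.02 ± 0.12 (0.89), and with scaling by library size alone the panobinostat value was 0.32 and passed (adjusted p = 0.012).

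Of the 18 tested genes that BCL6 is reported to repress (22 in all), 5 rose and 11 fell with romidepsin at 20 h, 5 rose and 12 fell with panobinostat and 6 rose and 9 fell with ricolinostat, with medians of -0.99, -2.09 and -0.13. At 2 h, when BCL6 averaged 3.99 CPM with romidepsin, 18.6 with panobinostat and 3.92 with ricolinostat, 2 rose and 7 fell with romidepsin, 5 rose and 9 fell with panobinostat and 2 rose and 12 fell with ricolinostat. PRDM1, which BCL6 and BACH2 both repress in B cells, had 79.6 and 82.1 CPM with romidepsin at 20 h, 8.22 and 9.14 with panobinostat and 441 and 435 with ricolinostat, against 516 and 514 in DMSO (-2.67 ± 0.05, -5.88 ± 0.06 and -0.23 ± 0.04). BCL2, an anti-apoptotic gene, changed by -2.81 ± 0.08 with romidepsin and -4.26 ± 0.09 with panobinostat. CDKN1A and ID2, the p21 cell cycle inhibitor and an inhibitor of E proteins, are on the same list and rose with romidepsin (3.36 ± 0.05 and 3.69 ± 0.05). The list thus held changes in both directions in libraries with 28.2 and 25.3 CPM of BCL6.

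**Figure D5:**
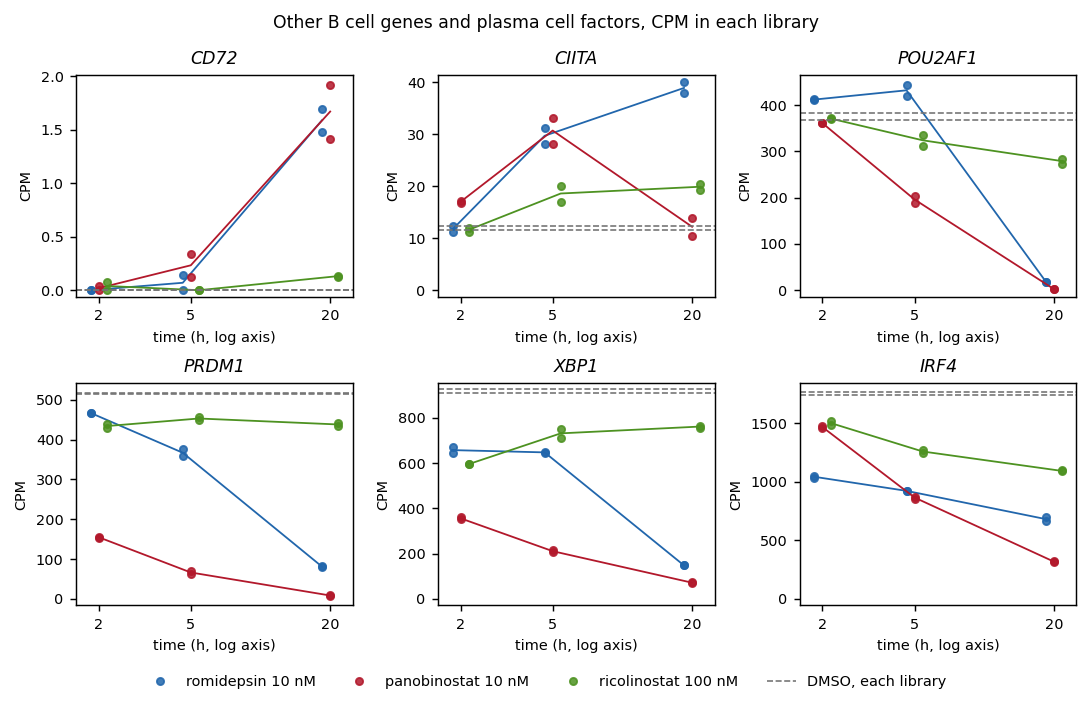
Level in CPM of CD72, CIITA, POU2AF1, PRDM1, XBP1 and IRF4 against time (h, log axis) with romidepsin (blue), panobinostat (red) and ricolinostat (green); points are libraries, lines join group means and dashed lines are the DMSO libraries. CD72 is at 1.69 and 1.48 CPM with romidepsin and 1.92 and 1.41 with panobinostat at 20 h and at 0 in DMSO, while PRDM1 is at 79.6 and 82.1 CPM, 8.22 and 9.14 CPM and, in DMSO, 516 and 514 CPM.

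The other B cell surface genes gave 12 tested genes of 20. Of these 6 rose and 3 fell with both romidepsin and panobinostat at 20 h, and 3 rose and 1 fell with ricolinostat, with medians of 1.66, 1.09 and 0.50 (1.52, 1.09 and 0.10 with genes at 0 placed at their bound). The 3 rises with ricolinostat were 1 with DESeq2, with no filter on low counts, without ricolinostat 20 h replicate 1 and without DMSO replicate 1. FCRL2, an Fc receptor-like protein, and CXCR4, a chemokine receptor, were among the falls with romidepsin (-3.58 ± 0.09 and -2.18 ± 0.06) and panobinostat (-6.44 ± 0.12 and -2.86 ± 0.06). CR2, a complement receptor and marker of mature B cells, averaged 4.4 CPM with romidepsin, 6.01 with panobinostat and 2.05 with ricolinostat at 20 h, against 1.41 CPM in DMSO, while CD22, FCER2 and TCL1A stayed at means of 0.245 CPM or less in every group.

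Of 17 tested B cell receptor signalling genes (20 in all), 8 rose and 6 fell with romidepsin at 20 h, 6 rose and 9 fell with panobinostat and 2 rose and 6 fell with ricolinostat, with medians of 0.37, -0.57 and 0.17 (0.00 for ricolinostat at the bound). PIK3CD, a PI3 kinase subunit of lymphocytes, had 22 and 23 CPM with romidepsin and 46.6 and 49 with panobinostat, against 0.423 and 0.485 in DMSO (5.61 ± 0.22 and 6.70 ± 0.20). PRKCB, a protein kinase C, rose with all 3 (3.58 ± 0.09, 3.38 ± 0.09 and 1.52 ± 0.11). PTPN6, the phosphatase SHP-1, fell with all 3 (-3.92 ± 0.08, -5.53 ± 0.09 and -0.65 ± 0.06). With ricolinostat 5 of this list rose and 4 fell when scaled by library size alone, and 4 rose and 5 fell without DMSO replicate 1.

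Of 21 tested other B cell transcription factors (24 in all), 10 rose and 7 fell with romidepsin at 20 h, 7 rose and 12 fell with panobinostat and 6 rose and 7 fell with ricolinostat, with medians of 0.22, -0.61 and 0.07. POU2AF1, a B cell coactivator, had 17.9 and 18.7 CPM with romidepsin and 2.54 and 2.25 with panobinostat, against 384 and 368 in DMSO (-4.36 ± 0.05 and -7.30 ± 0.07). IKZF1, a lymphoid zinc finger factor, changed by -4.82 ± 0.07 with panobinostat. MEF2B, a germinal centre factor that activates BCL6, had 70 counts with panobinostat and 2 in DMSO over both libraries, a ratio of 30 (95% counting interval 8.01 to 253). With so few counts in DMSO, MEF2B passed the filter only through other groups. Its ratio is therefore a description, although the list counts include it. The interval is too narrow if the 2 mates of a read pair were counted separately. Between romidepsin and panobinostat at 20 h, 15 of these 21 factors were higher with romidepsin and 1 was lower, with a median of 0.93, beside 23.4% and 18.3% of all tested genes and a median of all of 0.00.

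Of 11 tested germinal centre genes (16 in all), 6 rose and 4 fell with romidepsin at 20 h, 5 rose and 5 fell with panobinostat and 4 rose and 2 fell with ricolinostat, with medians of 0.22, 0.05 and 0.13. The ricolinostat rises were 2 without DMSO replicate 1, and the romidepsin falls were 2 with scaling by library size alone. S1PR2, a receptor that keeps cells in the germinal centre, rose with romidepsin (3.30 ± 0.55) and panobinostat (3.39 ± 0.55), and BCL7A fell with romidepsin, panobinostat and ricolinostat (-0.94 ± 0.19, -1.76 ± 0.20 and -1.01 ± 0.20). Of 6 tested early B cell and recombination genes (15 in all), 4 rose and 1 fell with both romidepsin and panobinostat and 3 rose and 1 fell with ricolinostat, with medians of 0.73, 0.46 and 0.35. The panobinostat rises were 2 without panobinostat 20 h replicate 2, without DMSO replicate 2 and with no filter, and the ricolinostat rises were 1 without ricolinostat 20 h replicate 1 or DMSO replicate 1. RAG1, a recombinase subunit, had 3 and 3.04 CPM with romidepsin, 3.29 and 2.89 with panobinostat and 1.97 and 1.5 with ricolinostat, against 0.635 and 0.186 in DMSO. It was above both DMSO libraries in all 6, and the changes were 2.90 ± 0.41, 2.93 ± 0.41 and 2.10 ± 0.44 (adjusted p = 7.0e-10, 3.3e-10 and 4.4e-05).

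Of the 21 corepressors and partners of BCL6, PAX5 and BACH2, all tested, 5 rose and 16 fell with romidepsin at 20 h, 6 rose and 15 fell with panobinostat and 2 rose and 7 fell with ricolinostat, with medians of -0.74, -1.13 and 0.01. The ricolinostat rises were 9 with scaling by library size alone and 5 when only these 2 groups were fitted. HDAC7, a class IIa deacetylase, changed by -2.71 ± 0.07 with romidepsin and -4.27 ± 0.07 with panobinostat, and TLE4, a Groucho corepressor that binds PAX5, rose with romidepsin (1.91 ± 0.10). Of the 18 plasma cell genes, all tested, 16 fell and 1 rose with romidepsin at 20 h, 17 fell and 1 rose with panobinostat and 14 fell and 2 rose with ricolinostat, with medians of -1.56, -2.38 and -0.29. The 1 rise with panobinostat was lost without either DMSO library, without panobinostat 20 h replicate 2, with no filter and when only 2 groups were fitted, and 2 rose with romidepsin under scaling by library size alone. XBP1 had 148 and 149 CPM with romidepsin, 70.3 and 73.4 with panobinostat and 765 and 756 with ricolinostat, against 910 and 928 in DMSO, and IRF4, a factor myeloma cells need, had 668 and 695, 316 and 320, 1088 and 1096 and, in DMSO, 1767 and 1736 CPM.

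Markers of other cell types moved at 20 h too. The T and NK cell list of 16 summed to 314 and 308 CPM with romidepsin, 239 and 234 with panobinostat, 182 and 181 with ricolinostat and 174 and 176 in DMSO, nearly all of it NCAM1, with CD3D, CD3E and CD8A at means of 0.117 CPM or less. KLRD1 averaged 0.941 CPM with romidepsin, 0.367 with panobinostat, 0.351 with ricolinostat and 0 in DMSO. CD247 averaged 1.47, 1.82, 1.31 and, in DMSO, 0.667 CPM, and ZAP70 0.487, 0.702, 0.457 and, in DMSO, 0.21 CPM. With panobinostat CD7 averaged 0.773 and NKG7 0.296 CPM, against 0.0423 and 0.0212 in DMSO, while TRAC averaged 0.015 against 0.234 CPM. The 14 myeloid markers summed to 3.42 and 2.86, 7.9 and 8.12, 0.685 and 1.13 and, in DMSO, 0.635 and 0.745 CPM, with S100A8 and S100A9 at 0 in all 4 groups and CSF1R at 1.46, 5.16, 0.0894 and, in DMSO, 0.0423 CPM on average. The 12 erythroid markers summed to 425 and 422, 621 and 643, 328 and 322 and, in DMSO, 347 and 371 CPM, mostly TFRC, with AHSP at 0. With panobinostat KLF1, GATA1 and ALAS2 averaged 0.927, 0.366 and 0.884 CPM, against 0, 0 and 0.103 in DMSO. With romidepsin KLF1, GATA1 and ALAS2 averaged 0.294, 0.0793 and 0.804 CPM. HBB was lower with romidepsin and panobinostat (0.132 and 0.189 CPM, against 0.671 in DMSO). The 10 stromal markers summed to 723 and 717, 276 and 284, 631 and 624 and, in DMSO, 646 and 663 CPM, mostly VIM and FN1, while COL1A1 averaged 25.5 CPM with romidepsin, 34.1 with panobinostat, 0.174 with ricolinostat and 0 in DMSO, and COL3A1 and PDGFRB stayed at 0.0633 CPM or less. The 8 epithelial markers summed to 4.43 and 4.97, 5.67 and 5.71, 1.16 and 0.589 and, in DMSO, 0.932 and 0.596 CPM, with KRT5 at 0. CLDN4 averaged 1.18 CPM with romidepsin, 1.23 with panobinostat, 0.0881 with ricolinostat and 0.324 in DMSO, and KRT8 0.0371, 0.346, 0 and, in DMSO, 0 CPM. At 20 h VIM averaged 415 CPM with romidepsin, 106 with panobinostat and 596 with ricolinostat, against 644 in DMSO. FN1 averaged 275, 136, 30.2 and, in DMSO, 9.81 CPM. DCN averaged 2.38, 1.99, 0.0227 and, in DMSO, 0.0373 CPM, and MUC1 3.37, 4.08, 0.742 and, in DMSO, 0.44 CPM. Genes of these lists thus moved in both directions while CD3D, S100A8, AHSP and KRT5 stayed at or near 0. The part of these lists in the members' changes was not tested.

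Genes with courses most like each tested member were found by Pearson correlation of group means of log2(CPM + 0.1) over the 10 groups, given here as a description of groups that share their DMSO libraries and depth. The nearest to BCL6 was ZNF445 (r = 0.982), with 118 CPM with romidepsin and 103 with panobinostat at 20 h, against 31.5 in DMSO, followed by CDKN2B (0.978) and KCNJ2 (0.977). The nearest to EBF1 were ADGRL1 (0.979), RAB3IP (0.973) and TDRD7 (0.971). PAX5 was nearest to CREB3L1 (0.984), CCDC57 (0.981) and ATP1B2 (0.981), each highest with panobinostat at 20 h. This likeness rests largely on that group, which held 123 of the 155 counts of PAX5. CD79B was nearest to CCDC85B (0.991), SAMM50 (0.987) and TP53I13 (0.985), and the likeness was lower for BACH2, with SPINK2 (0.899), PPP1R21 (0.892) and IL4R (0.883), and for SPIB, with VWA3A (0.897), NPIPB13 (0.868) and MTFMT (0.867).

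The nearest tested genes on either side of PAX5, EBF1 and BCL6 fell or did not pass with romidepsin and panobinostat at 20 h. ZCCHC7, 86.4 kb from PAX5, changed by -0.93 ± 0.08 with romidepsin and -1.09 ± 0.08 with panobinostat at 20 h, and RNF145, 57.6 kb from EBF1, by -1.61 ± 0.09 and -2.18 ± 0.09. LPP, 408 kb from BCL6, changed by -0.26 ± 0.10 and -0.95 ± 0.10. MAP3K7, 217 kb from BACH2, rose with both, by 0.82 ± 0.05 and 0.65 ± 0.05, although BACH2 fell with panobinostat. Next to SPIB, which did not pass, MYBPC2 at 1.59 kb fell by 2.20 ± 0.06 and 3.39 ± 0.07 on the log2 scale. Genes that overlap members had 24 counts or fewer over all libraries, the most in an antisense gene at BCL6 (ENSG00000285938) with 10 counts with romidepsin and 7 with panobinostat at 20 h and 0 in DMSO, beside 1429, 1493 and 109 counts of BCL6. The libraries are strand-specific but the strand setting of the counting is not given in the sources used here, so those few antisense counts are uncertain.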

How the data were processed

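The deposited table holds raw counts per Ensembl gene for 20 libraries, unscaled, for which the submitters' processing notes name GRCh38 and the tools SAMtools, HISAT2 and featureCounts. Which annotation was used, and how strand and mates were handled in the authors' counting, is not given in the sources. Libraries were poly(A)-selected, strand-specific and paired-end, per the labels' protocols. Gene names came from a name table that holds 61481 of 78932 identifiers, and positions and exon lengths from GENCODE 29.

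Counts were filtered (filterByExpr by group, minimum count 10), scaled by TMM and fitted in 1 model with a term per group in edgeR 4.0.16 (R 4.3.3, limma 3.58.1), with robust quasi-likelihood tests and Benjamini-Hochberg adjustment over 20957 genes per contrast at 0.05. The steps were tested on simulated counts in which few genes changed, in 1 group only. That setting is unlike the romidepsin and panobinostat groups at 20 h, where most tested genes rose or fell. DESeq2 1.42.0 was an alternative. Intervals are 95%, and a group without counts was set to a floor of 3 counts over its 2 libraries. Promoter sequences are RefSeq's for GRCh38.p14. All 8 members are named, and up to 4 genes per list with the largest called change at 20 h, a mean of at least 1 CPM in 1 group, besides PRDM1, XBP1, IRF4 and CIITA; neighbours on the chromosome, and marker genes given with the cell type lists, were named outside this rule. Results of a few list genes are not reported here. The members and lists were chosen with earlier results of these data known. Replicate numbers were checked and do not pair libraries. The replicates are described as independent biological ones.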

Additional observations from a re-analysis of the deposited data

Results flagged for a closer look

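The comparisons between successive harvests within 1 inhibitor are given here because the effects at these times differed by the edgeR quasi-likelihood test of the difference itself, with adjusted p over all tested genes. BCL6 with romidepsin was 1.19 ± 0.17 higher at 5 h than at 2 h (adjusted p = 1.6e-08, 2 of 2 libraries) and 1.63 ± 0.13 higher at 20 h than at 5 h (6.0e-20). BCL6 with panobinostat was 0.39 ± 0.13 higher at 5 h than at 2 h (0.0074), a call lost without panobinostat 2 h replicate 2 (0.36) or 5 h replicate 2 (0.22). BCL6 with ricolinostat changed by -0.58 ± 0.23 at 20 h against 5 h (0.033), lost without ricolinostat 5 h replicate 2 (-0.08) or 20 h replicate 2 (-0.38). BCL6 thus passed at both steps with romidepsin and at 1 step with each of the others, and whether the inhibitors differed in that was not tested.

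BACH2 with panobinostat was 0.43 ± 0.09 higher at 5 h than at 2 h (adjusted p = 3.6e-05) and changed by -1.05 ± 0.09 at 20 h against 5 h (2.0e-18). BACH2 at 20 h against 5 h rose by 0.74 ± 0.09 with romidepsin (5.2e-12) and by 0.65 ± 0.09 with ricolinostat (1.6e-09). CD79B at 20 h against 5 h changed by -2.16 ± 0.31 with romidepsin (1.5e-09), -2.70 ± 0.31 with panobinostat (3.1e-13) and -0.63 ± 0.23 with ricolinostat (0.024), the last lost without any one of ricolinostat 20 h replicate 1 (-0.64), 20 h replicate 2 (-0.57) and 5 h replicate 2 (-0.39).

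EBF1 at 20 h against 5 h rose by 1.85 ± 0.44 with romidepsin (adjusted p = 1.5e-04) and 1.48 ± 0.47 with panobinostat (0.0047), the second lost without panobinostat 20 h replicate 1 (1.23) or 5 h replicate 1 (1.20). PAX5 passed the filter only through panobinostat at 20 h, so its fitted difference with panobinostat at 20 h against 5 h, 3.60 ± 0.84, is a description, and with no filter on low counts it was 3.57 (adjusted p = 1.1e-04). With panobinostat PAX5 had 7 counts over both libraries at 5 h and 0 at 2 h. The pooled counts at 5 h were 2.64-fold above a floor of 3 at 2 h, a value that leaves out their counting error. The fitted difference was 5.04 ± 1.98 (adjusted p = 0.032), again a description. PAX5 with romidepsin had 17 counts at 20 h and 2 at 5 h, a ratio of 7.87 (95% counting interval 1.87 to 70.3). The fitted difference was 2.81 ± 1.16 (adjusted p = 0.029), again a description. That call was lost with the DESeq2 test (adjusted p = 0.058) and with no filter on low counts (0.058). It was also lost without romidepsin 20 h replicate 2 (2.61) or 5 h replicate 1 (1.77). The earlier PAX5 step with panobinostat was lost with no filter on low counts (adjusted p = 0.058), with counts halved (0.1) and without panobinostat 2 h replicate 1 (adjusted p = 0.11), 2 h replicate 2 (0.14) or 5 h replicate 2 (0.15).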

How the results depend on the processing

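Counts of members here include PAX5. No member changed sign past the threshold under any alternative, and the falls of CD79B and the rises of EBF1 and BCL6 with romidepsin and panobinostat at 20 h passed under all of them; the cause of the differences below was not tested. The calls of ricolinostat at 5 h were the least stable: 0 members rose with DESeq2-type size factors, no filter, the replicate block, the DESeq2 test, a fit of 2 groups and counts halved (chosen after seeing the data), and 1 fell with DESeq2-type size factors and counts halved. Members that fell with ricolinostat at 20 h against 5 h were 0 with scaling by library size only, no filter and DESeq2, and 1 with 2 groups or halved counts. Members higher with romidepsin than panobinostat at 20 h were 2 with 2 groups and with halved counts, and 2 members rose with romidepsin at 5 h with scaling by library size only. That scaling gave 1187 higher and 622 lower genes with romidepsin at 2 h (743 and 968 in the main analysis, 507 and 1142 with DESeq2), 4212 and 1699 at 5 h (2734 and 3464), 4389 and 2242 with ricolinostat at 20 h (3082 and 3432), 10309 and 5332 with panobinostat at 20 h (8560 and 6769), and 1407 lower with romidepsin at 5 h against 2 h (2493).

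Leaving out 1 library gave 2238 to 2757 genes higher with ricolinostat at 2 h, 2466 to 2879 at 5 h, 751 to 901 higher and 1065 to 1915 lower at 5 h against 2 h, 338 to 380 higher and 562 to 806 lower with romidepsin at 2 h, and 1534 to 2190 lower at 5 h against 2 h. Members that rose were 1 to 3 with panobinostat at 5 h against 2 h, 1 to 2 at 20 h against 5 h, 0 to 1 with romidepsin at 2 h, 1 to 2 at 5 h and 0 to 1 with ricolinostat at 5 h. Members that fell were 0 to 1 with romidepsin at 5 h, with romidepsin at 5 h against 2 h, with ricolinostat at 2 h, at 5 h and at 5 h against 2 h, and with romidepsin against panobinostat at 20 h, and 0 to 2 with ricolinostat at 20 h against 5 h. The number of members that rose with romidepsin at 20 h, against DMSO and against 5 h, also changed with the library left out. The lone library left in such a group is taken to vary like the others. The replicate numbers do not pair libraries, since deviations of same-numbered libraries correlated at -0.02 to 0.03 over 45 pairs of groups, and the replicate block changed 1 member call, BCL6 with ricolinostat at 5 h (0.55, adjusted p = 0.051). Depth limits SPIB, with 12 to 43 counts per group, and CD79A, with 0 to 12.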
